A study of Homo sapiens with 12 samples.

Results

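The 36 genes described here code for the machinery of cholesterol synthesis, transport and efflux and for other targets of the sterol regulatory element-binding proteins (SREBPs). None of them codes for a lipoprotein receptor. The genes were taken by symbol from a list of pathway members chosen with earlier results of these data known. All 36 were present among the 28278 symbols of the count matrix. By role, 7 were enzymes of the mevalonate stage, 11 were enzymes of the later sterol stage, 6 were sterol sensors and transcription factors, 5 moved sterol between or out of membranes, and 7 made or modified fatty acids. Poly(A) RNA was sequenced from cells labelled OVCAR3, an ovarian cancer line, and from CCL218, a colorectal cancer line. Each line was grown on 96-well plates with or without hydroxychloroquine (HCQ), a weak base that accumulates in lysosomes and inhibits autophagy. HCQ-evolved cells had received 15 pulses of 48 h, each followed by fresh medium, and had then grown for 7 days without drug, so the comparison concerns cells after HCQ and not cells in HCQ.

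The groups were control OVCAR3, HCQ-evolved OVCAR3, control CCL218 and HCQ-evolved CCL218, with 3 pools in each. A pool joined the wells of the left (L), middle (M) or right (R) part of a single plate, so the 3 pools of a group share a plate and their spread may be partly technical. Control pools were labelled passage 19 and HCQ-evolved pools passage 15, so passage number and HCQ history cannot be told apart. In pooled RNA, fewer cells that express a gene and less RNA per cell cannot be told apart either.

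Cells make cholesterol from acetyl-CoA through mevalonate and squalene. When sterol in the endoplasmic reticulum is plentiful, INSIG proteins hold the complex of SCAP and an SREBP there. When sterol is low the complex leaves, the SREBP is cleaved, and its released domain switches on genes of sterol and fatty acid synthesis. Sterol taken up with lipoproteins leaves the lysosome through NPC2 and NPC1, and excess sterol activates the liver X receptors (LXRs), which switch on the exporters ABCA1 and ABCG1.

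The pools held 31147822 to 59965861 counts each and 16569 to 18992 genes with a count. Levels are given as CPM, a gene's counts relative to the library total as scaled by the trimmed mean of M values (TMM), and fold changes are HCQ-evolved over control. The libraries differed in how counts depended on transcript length. The rank correlation of each gene's deviation with transcript length was positive (0.540 and 0.573) in control M and HCQ-evolved R of OVCAR3 and between -0.450 and -0.367 in the other 4 OVCAR3 pools. In CCL218 it was -0.509, 0.476 and 0.037 in controls L, M and R and -0.219, 0.297 and 0.472 in HCQ-evolved pools. The libraries labelled OVCAR3 were checked against markers of their tissue. WT1 was at 0.103 to 2.36 CPM, SOX17 had 0 counts and EMX2 at most 2 counts, so these 3 of the 6 ovarian markers were near or at 0. The other 3 were present, with PAX8 at 7.24 to 14.9, MECOM at 24.4 to 52.7 and MUC16 at 13 to 50.1 CPM. In CCL218 pools PAX8 was at 6.41 to 11.2, MECOM at 40.9 to 75.4 and MUC16 at 3.66 to 14.3 CPM, so only MUC16 was mostly lower there. The intestinal gene VIL1 was at 78.6 to 290 CPM in the pools labelled OVCAR3 and at 160 to 203 CPM in CCL218 pools. The 6 colorectal markers summed to 903 to 1117 CPM in control and 216 to 644 CPM in HCQ-evolved pools labelled OVCAR3, and 2 of the 6 were lower without overlap. These were VIL1 (197 to 290 against 78.6 to 133 CPM) and LGALS4 (644 to 860 against 133 to 491 CPM). They made up most of the sum. In control OVCAR3, CDX2 was at 8.68 to 13.7 CPM, and CDX1, CDH17 and GPA33 were each at or below 3.77 CPM. In CCL218 the sums were 1091 to 1585 and 1092 to 1145 CPM, with 3 of 6 markers higher and 1 lower without overlap. CDX2 was at 21.2 to 26.5 CPM in controls and 62.3 to 71.3 CPM after HCQ. CDH17 was at 2.44 to 4.88 and 45 to 57.4 CPM, and GPA33 at 3.81 to 5.34 and 32.2 to 36.5 CPM. LGALS4, the largest part of the sum, was lower, at 880 to 1370 and 731 to 834 CPM. The 6 ovarian markers summed to 55.5 to 92.0 CPM over all pools labelled OVCAR3 and to 59.1 to 90.4 CPM over all CCL218 pools, and the 4 fibroblast markers to at most 3.25 CPM in any pool. The log2 difference between the control pools of the lines had an SD of 0.461 over 12613 genes, against 0.507 and 0.460 for HCQ-evolved against control in OVCAR3 and CCL218. Whether the labels stand for different lines was not tested, so OVCAR3 and CCL218 below mean the libraries labelled so. The part that these marker shifts play in the results below was not tested either.

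Per kilobase of transcript, the steady levels of the 36 genes spanned more than 3 orders of magnitude on a log scale. SCD, the desaturase that makes oleate, was highest at 206 to 309 CPM per kb across the 4 group means. FDFT1 (133 to 167 CPM per kb) and SQLE (109 to 119 CPM per kb), which make and then oxidise squalene, came next. At the low end were FADS1 and FADS2, desaturases of polyunsaturated fatty acids, at 0.0717 to 0.388 and 0.102 to 0.171 CPM per kb, and ACACA at 0.218 to 0.300 CPM per kb. FADS1 was below ACACA in CCL218 and above it in OVCAR3. FADS2 had 10 to 37 counts and FADS1 had 10 to 152 counts in a pool. FADS2 was therefore not tested in either line and FADS1 was not tested in CCL218, so 35 members entered the OVCAR3 test and 34 the CCL218 test.

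**Figure D1:**
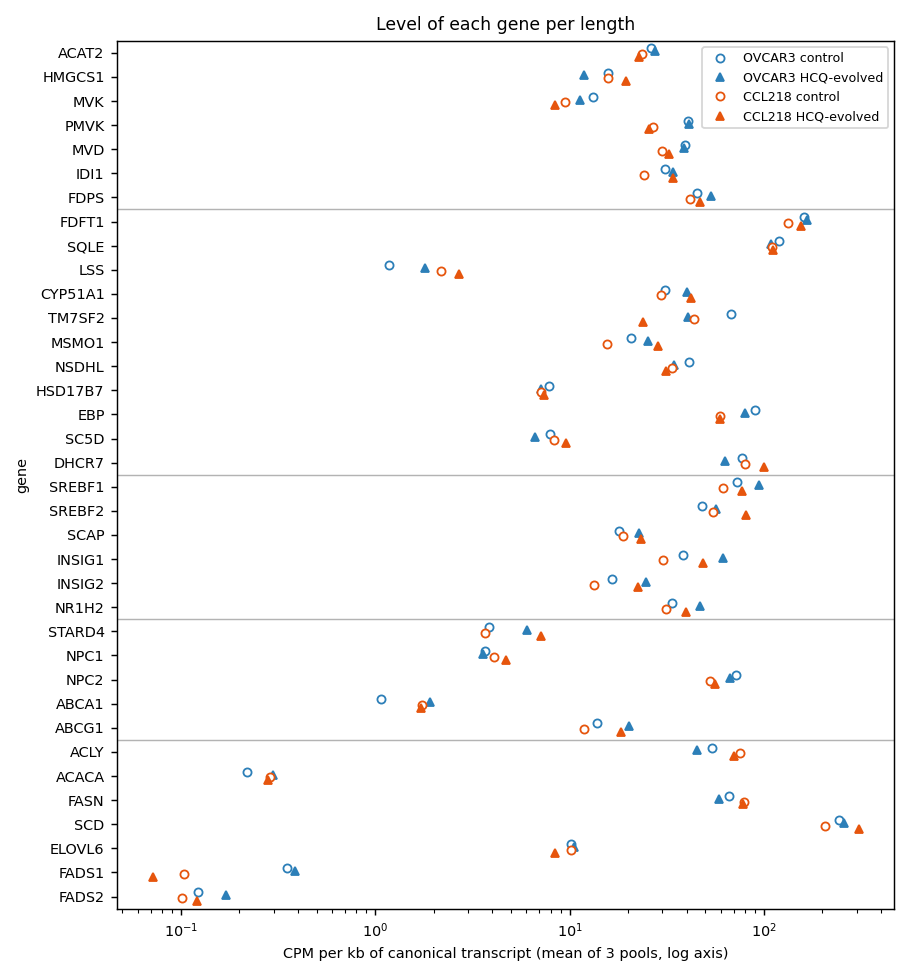
Level of each of the 36 genes in CPM per kb of canonical transcript on a log axis, with 1 mark for the mean of 3 pools in each of the 4 groups and role groups divided by grey lines. SCD, FDFT1 and SQLE stand at the right, at or above 109 CPM per kb, and FADS1, FADS2 and ACACA at the left, below 0.4 CPM per kb.

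In CCL218, 5 of the 34 tested members rose and 0 fell at an adjusted p under 0.05 in edgeR's quasi-likelihood test. Over all 12241 genes tested, 3.82% rose and 2.64% fell. The 5 were MSMO1, INSIG2, INSIG1, STARD4 and ABCG1. At an unadjusted p under 0.05, 10 members were higher (12.5% of all genes) and 1 was lower (12.7% of all genes). The pools of 14 members lay above every control pool (18.6% of all genes), and those of 3 members lay below (17.3%). The median log2 fold change was 0.19 over the members and -0.02 over all genes tested, and 24 of 34 members were above 0 (48.3% of all genes).

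In OVCAR3, 0 of the 35 tested members rose or fell at an adjusted p under 0.05 in edgeR, where 0.647% of the 12204 genes tested rose and 1.21% fell. DESeq2 also called 0 members, while 4.44% of all genes rose and 4.62% fell in it. At an unadjusted p under 0.05, 4 members (INSIG2, INSIG1, SREBF1 and STARD4) were higher (8.38% of all genes) and 1 (TM7SF2) was lower (7.87%). The pools of 3 members lay above every control pool (13% of all genes) and those of 2 below (12.7%). The median log2 fold change was 0.08 over the members and 0.02 over all genes, with 21 of 35 members above 0 (51.6% of all genes).

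**Figure D2:**
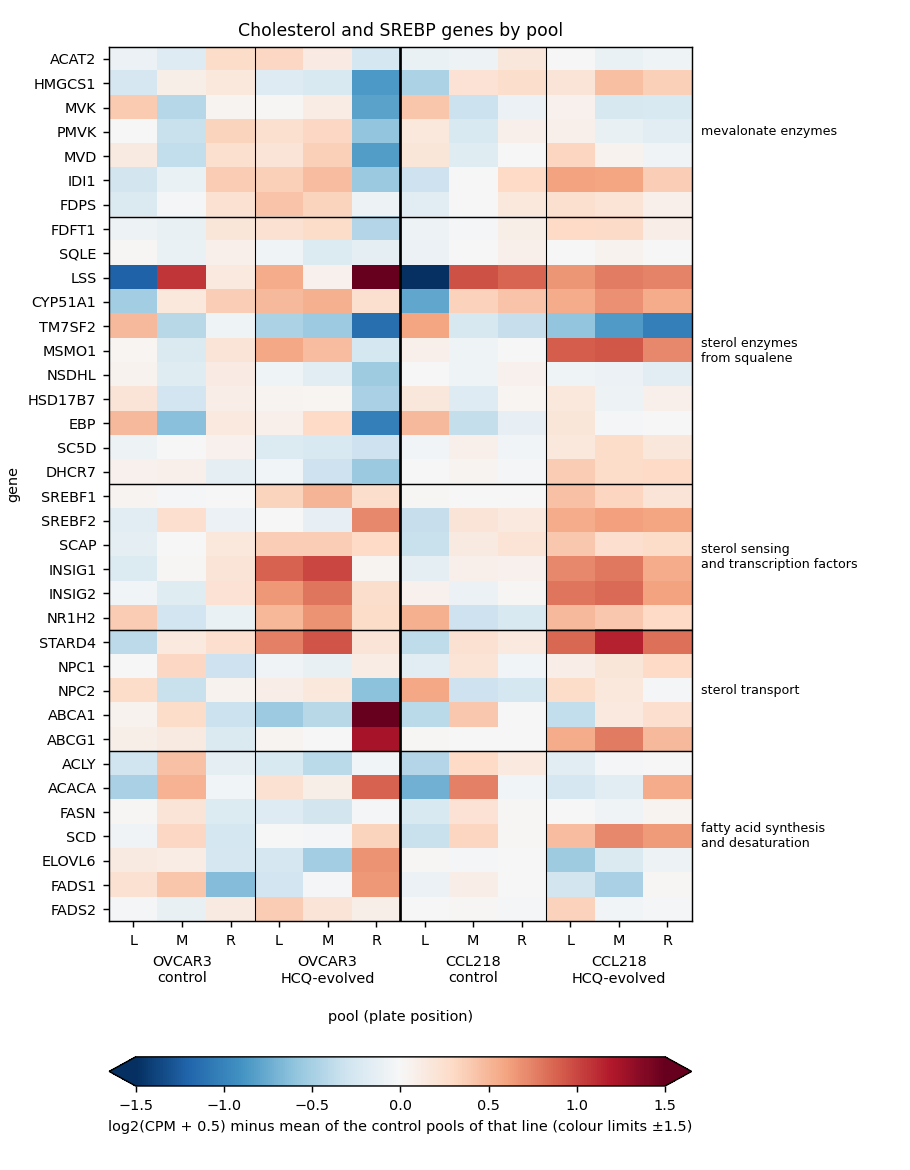
Difference of each pool from the mean of the control pools of its line, as log2(CPM + 0.5), for the 36 genes (vertical) and the 12 pools (horizontal). The sensing and transcription factor genes are above the control mean in all HCQ-evolved CCL218 pools, and HCQ-evolved OVCAR3 R is below it for all 7 mevalonate enzymes.

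The numbers for OVCAR3 rest on HCQ-evolved pools that differed among themselves. Pools L and M had 6 of 7 mevalonate enzymes above the control mean, with median differences of 0.25 and 0.31 on the log2(CPM + 0.5) scale. Pool R had 0 of 7 above it and a median of -0.59. For the sterol enzymes the medians were 0.04, 0.03 and -0.44 in L, M and R, and for the fatty acid genes they were -0.21, -0.15 and 0.49. Pool R thus stood below its control mean for the enzymes of sterol synthesis and above it for fatty acid genes, unlike L and M. Control pools were also split. Control M, whose length trend was positive like that of HCQ-evolved R, had 1 of 7 mevalonate enzymes and 6 of 6 tested fatty acid genes above the control mean (medians -0.19 and 0.37). Control R had 7 of 7 and 0 of 6 (medians 0.24 and -0.23).

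The sensors and regulators were the role group in which all 6 genes had a log2 fold change above 0 in both lines, with medians of 0.44 in OVCAR3 and 0.45 in CCL218. For SREBF2 in OVCAR3 this rested on HCQ-evolved R, without which its log2 fold change was -0.07. INSIG1 and INSIG2 code for the membrane proteins that retain SCAP in the endoplasmic reticulum, and INSIG1 is itself a target of SREBPs. The INSIG1 gene lies on the plus strand of chromosome 7 from 155297776 to 155310235 (GENCODE 44 on hg38). It was at 79.1, 92.7 and 91.6 CPM in control CCL218 pools L, M and R and at 145.1, 151.8 and 128.7 CPM in HCQ-evolved pools. Every HCQ-evolved pool was above every control pool. The means were 87.8 ± 7.57 and 141.9 ± 11.9 CPM (SD, n = 3), a log2 fold change of 0.69 (SE 0.128, 1.61-fold, edgeR adjusted p = 0.0250). In OVCAR3, INSIG1 was at 96.2, 111.7 and 126.3 CPM in control pools and at 204.9, 221.8 and 113.9 CPM in HCQ-evolved pools. L and M were above every control pool and R lay among them. The log2 fold change was 0.71 (SE 0.269, adjusted p = 0.248), and without HCQ-evolved R it was 0.94 (adjusted p = 0.0289, edgeR). That was the only 1 of 6 fits leaving out a pool in which INSIG1 passed (adjusted p 0.0289 to 0.589, edgeR). It passed in 1 of 10 other settings.

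INSIG2, on the plus strand of chromosome 2 from 118088452 to 118110997, was at 49.5, 44.5 and 48.1 CPM in control CCL218 and at 83.2, 85.4 and 72.0 CPM in HCQ-evolved CCL218. The groups did not overlap, and the log2 fold change was 0.76 (SE 0.126, 1.69-fold, edgeR adjusted p = 0.0178). In OVCAR3 it was at 56.8, 51.6 and 67.7 CPM in controls and at 91.7, 102.2 and 70.1 CPM after HCQ, a log2 fold change of 0.60 (SE 0.208, adjusted p = 0.206). Those groups did not overlap either, although R exceeded the highest control by less than the spread of the controls. With all 12 libraries in a single edgeR fit, INSIG2 passed in OVCAR3 (adjusted p = 0.0493). This was 1 of 10 other settings, and INSIG2 passed there in 0 of 6 fits that left out a pool.

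SREBF2, which codes for SREBP2, the main activator of sterol synthesis genes, was at 222.2, 323.7 and 311.7 CPM in control CCL218 and at 414.8, 432.0 and 424.2 CPM in HCQ-evolved CCL218. All HCQ-evolved pools were higher, and control L was lowest. Its log2 fold change was 0.57 (SE 0.162, edgeR adjusted p = 0.0895). With plate position as a block the change was 0.58 and passed (adjusted p = 0.0346). In OVCAR3 pools L and M after HCQ (248.3 and 229.8 CPM) lay among the controls (223.2, 297.6 and 234.4 CPM) and R was at 411.8 CPM. SREBF1, the counterpart for fatty acid genes, had log2 fold changes of 0.39 (SE 0.161, adjusted p = 0.285) in OVCAR3 and 0.32 (SE 0.116, adjusted p = 0.143) in CCL218. Its pools did not overlap in either line. SCAP, the escort and sterol sensor, had values of 0.36 and 0.30 without overlap in either line, and NR1H2, which codes for the receptor LXR beta, had 0.49 and 0.34 with overlap in both. Exons of NR1H2 overlap 1182 bases of NAPSA and those of SREBF1 overlap 556 bases of RAI1 on the opposite strand, and reads there cannot be assigned if the counting ignored strand.

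**Figure D3:**
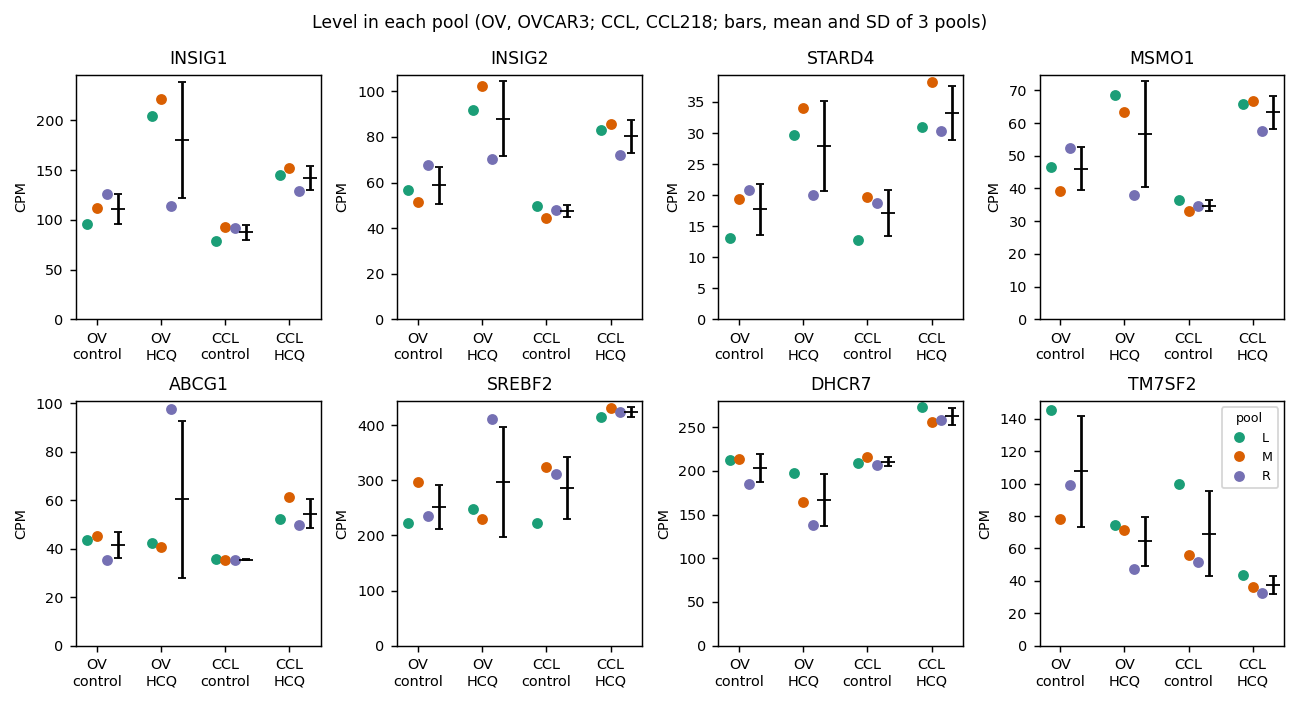
CPM in each pool (coloured by plate position) for 8 genes, with the mean and SD of 3 pools beside the points and axes from 0. HCQ-evolved CCL218 pools lie above all control CCL218 pools for INSIG1, INSIG2, STARD4, MSMO1, ABCG1, SREBF2 and DHCR7 and below them for TM7SF2, and HCQ-evolved OVCAR3 R is the lowest or the highest of its 3 pools for all 8.

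Sequence just upstream is shown for 4 of the 5 genes that rose in CCL218 and for SREBF2, since SREBPs act at such stretches together with the factors NF-Y and Sp1. Each stretch ends before the first annotated base of its gene. Capitals mark matches, on either strand, to a sterol regulatory element core (TCACNCCAC), an NF-Y box (CCAAT), an E-box (CACGTG) and a GC box (GGGCGG). None of the marked matches overlaps a match to a different motif. The sequences are from RefSeq on GRCh38.p14 and are written 5′ to 3′ on the strand of the gene.
INSIG1, chr7:155297628-155297775, plus strand: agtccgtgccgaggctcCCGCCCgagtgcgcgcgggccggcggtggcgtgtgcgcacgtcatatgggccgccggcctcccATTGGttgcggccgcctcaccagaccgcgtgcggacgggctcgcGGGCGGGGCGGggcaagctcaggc
INSIG2, chr2:118088272-118088451, plus strand: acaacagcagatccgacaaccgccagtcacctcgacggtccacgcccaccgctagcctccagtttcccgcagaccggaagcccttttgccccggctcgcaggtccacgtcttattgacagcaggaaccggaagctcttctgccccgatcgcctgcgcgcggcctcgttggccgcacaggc
MSMO1, chr4:165327487-165327666, plus strand: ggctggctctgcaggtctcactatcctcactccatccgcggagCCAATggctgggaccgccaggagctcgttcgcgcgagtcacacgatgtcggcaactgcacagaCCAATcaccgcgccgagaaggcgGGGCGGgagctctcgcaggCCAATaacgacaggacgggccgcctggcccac
STARD4, chr5:111512591-111512770, minus strand: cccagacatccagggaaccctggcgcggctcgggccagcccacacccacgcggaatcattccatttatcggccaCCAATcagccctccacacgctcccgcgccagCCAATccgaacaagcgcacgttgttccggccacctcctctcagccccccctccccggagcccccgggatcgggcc
SREBF2, chr22:41832925-41833104, plus strand: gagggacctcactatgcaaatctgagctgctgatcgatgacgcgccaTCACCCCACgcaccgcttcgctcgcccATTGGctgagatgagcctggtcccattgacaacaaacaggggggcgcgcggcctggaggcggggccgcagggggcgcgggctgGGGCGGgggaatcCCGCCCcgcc
The core TCACNCCAC stood only in the SREBF2 stretch among these, and it began 133 bases before the RefSeq start site, with an NF-Y box 106 bases before it. MSMO1 and STARD4 carried 3 and 2 NF-Y boxes, INSIG1 carried 1, and the INSIG2 stretch matched none of the motifs. Matches nearer the RefSeq start site lay outside these stretches, among them an E-box that began 55 bases before it in INSIG1. A GC box began 7 bases before it in INSIG2 and 52 bases before it in STARD4.

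Over whole RefSeq promoter windows of 250 bases before and 50 bases after the start site, 31 of the 36 members had an entry. The NF-Y box was in 18 of 31 member windows (58.1%) and in 35.7% of 27305 windows of all genes. For the sterol enzymes it was in 8 of 9 windows (88.9%), for the mevalonate enzymes in 4 of 6 (66.7%), for the transport genes in 2 of 4 (50%), and for the sensing and the fatty acid genes in 2 of 6 each (33.3%). The GC box was in 29 of 31 (93.5%), against 44.6% of all windows and 67.9% of the windows of expressed genes. The sterol element core was in 1 of 31 (3.23%, against 1.15% of all windows) and the E-box in 5 of 31 (16.1%, against 7.43%). A match to these letters describes the sequence and is not evidence of binding. ACAT2, FDFT1, SQLE, ABCG1 and FASN had no entry.

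Among the transport genes STARD4, which codes for a soluble carrier that moves cholesterol between membranes, had the largest log2 fold change of the tested members in CCL218. It lies on the minus strand of chromosome 5 from 111496033 to 111512590. STARD4 was at 12.8, 19.8 and 18.7 CPM in control pools and at 31.04, 38.15 and 30.33 CPM in HCQ-evolved pools. Without overlap, it rose by 0.95 on the log2 scale (SE 0.195, 1.93-fold, edgeR adjusted p = 0.0353). In OVCAR3 it was at 13.1, 19.3 and 20.9 CPM in controls and at 29.7, 34.1 and 20.0 CPM after HCQ, a log2 fold change of 0.66 (SE 0.274, adjusted p = 0.288). Pools L and M were again above the controls and R lay among them.

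ABCG1, an LXR target that exports sterol to lipoproteins and whose gene spans 42199689 to 42297244 on the plus strand of chromosome 21, was at 35.9, 35.4 and 35.4 CPM in control CCL218 and at 52.35, 61.15 and 49.98 CPM in HCQ-evolved CCL218. The control pools were nearly equal and the groups did not overlap (log2 fold change 0.61, SE 0.128, 1.53-fold, edgeR adjusted p = 0.0362). ABCA1, the partner exporter, was at 13.2, 23.5 and 17.8 CPM and at 13.5, 19.5 and 21.0 CPM in the same pools, with overlap and a log2 fold change of -0.01 (95% interval -0.60 to 0.58). In OVCAR3 both exporters were set apart by a single pool. ABCA1 was at 11.5, 13.5 and 8.68 CPM in controls and at 7.38, 8.17 and 44.03 CPM after HCQ, and ABCG1 at 43.7, 45.3 and 35.4 CPM and at 42.6, 40.9 and 97.6 CPM. The ABCA1 value of 0.86 (SE 0.680, adjusted p = 0.593) was the highest of the OVCAR3 members and became -0.52 without HCQ-evolved R, and that of ABCG1 went from 0.57 to 0.02. NPC1 and NPC2, which pass cholesterol out of the lysosome, had log2 fold changes of -0.02 and -0.09 in OVCAR3 and of 0.19 and 0.08 in CCL218, with overlap throughout. NPC2 in CCL218 had a 95% interval of -0.52 to 0.69, which leaves room for changes as large as that of ABCG1.

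Of the 7 mevalonate enzymes, 0 passed in either line. IDI1, the isopentenyl diphosphate isomerase, had the largest value in CCL218, 0.50 (SE 0.178, adjusted p = 0.139). Its HCQ-evolved pools, at 99.3, 98.2 and 83.9 CPM, were above the controls, at 52.3, 65.5 and 80.4 CPM. HMGCS1, the cytosolic HMG-CoA synthase, was at 69.9, 88.8 and 93.5 CPM in control OVCAR3 and at 73.1, 71.0 and 45.6 CPM after HCQ, which overlapped (log2 fold change -0.40, SE 0.238, adjusted p = 0.462). In CCL218 it was at 59.2, 96.1 and 98.7 CPM and at 94.0, 113.1 and 105.6 CPM (0.30, SE 0.208, adjusted p = 0.402). MVK, the mevalonate kinase, was among the lowest in CCL218 with 34.9, 20.8 and 24.5 CPM in controls and 27.2, 22.0 and 22.2 CPM after HCQ (-0.17, SE 0.214, adjusted p = 0.636). ACAT2, PMVK, MVD and FDPS ranged from -0.02 to 0.25 in OVCAR3 and from -0.07 to 0.17 in CCL218. Exons of ACAT2 overlap 454 bases of TCP1, and exons of MVK overlap 225 bases of MMAB, on opposite strands.

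Among the 11 sterol enzymes MSMO1, the C4-methylsterol oxidase, had the smallest p of the members in CCL218. The MSMO1 gene spans 165327667 to 165343164 on the plus strand of chromosome 4. Its level was 36.5, 33.1 and 34.5 CPM in controls and 65.7, 66.7 and 57.5 CPM in HCQ-evolved pools. The control pools lay close together and no pool overlapped. The means were 34.7 ± 1.69 and 63.3 ± 5.05 CPM (SD, n = 3), a log2 fold change of 0.86 (SE 0.125, 1.82-fold, edgeR adjusted p = 0.0107). In OVCAR3 MSMO1 was at 46.5, 39.2 and 52.3 CPM in controls and at 68.4, 63.3 and 38.1 CPM after HCQ (0.31, SE 0.253, adjusted p = 0.602). Pool R was there below every control pool and L and M above.

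TM7SF2, which codes for a sterol C14-reductase, had the lowest value in both lines. In CCL218 it was at 99.5, 56.1 and 51.8 CPM in controls and at 43.7, 36.5 and 32.2 CPM after HCQ, without overlap (log2 fold change -0.89, SE 0.271, edgeR adjusted p = 0.103). With plate position as a block it fell by 0.83 on the log2 scale (adjusted p = 0.0106). In OVCAR3 it was at 145.4, 78.1 and 99.0 CPM in controls and at 74.5, 71.2 and 47.3 CPM after HCQ, also without overlap (-0.72, SE 0.275, adjusted p = 0.249). When the length and GC trend of each library was removed it passed in OVCAR3 as well, at -0.55 (adjusted p = 0.0337). In OVCAR3 TM7SF2 passed in that 1 of 10 other settings only and in 0 of 6 fits that left out a pool. Its exons share 18 bases with VPS51 on the same strand.

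DHCR7, the last step of one branch of the pathway, was at 209.0, 216.3 and 206.3 CPM in control CCL218 and at 273.3, 255.5 and 258.2 CPM after HCQ. Those groups did not overlap, and the log2 fold change was 0.31 (SE 0.107, adjusted p = 0.126). In OVCAR3 it was at 211.9, 213.6 and 184.6 CPM and at 197.3, 164.0 and 138.3 CPM (-0.27, SE 0.184, adjusted p = 0.522). SC5D, the lathosterol oxidase, was without overlap in both lines and in opposite directions: 51.4, 54.3 and 56.6 CPM against 46.7, 46.1 and 43.3 CPM after HCQ in OVCAR3 (-0.24, adjusted p = 0.532), and 55.6, 60.1 and 55.5 CPM against 63.6, 69.1 and 64.3 CPM in CCL218 (0.20, adjusted p = 0.315). With the length and GC trend removed, the CCL218 value of SC5D was -0.001. CYP51A1, the C14-demethylase, had log2 fold changes of 0.39 and 0.50 in OVCAR3 and CCL218. Exons of CYP51A1 share 2844 bases with a same-strand gene, and those of EBP share 644 bases with another. Neither of those other genes has a row in the count matrix. FDFT1, SQLE, NSDHL, HSD17B7 and EBP ranged from -0.24 to 0.06 in OVCAR3 and from -0.11 to 0.23 in CCL218. LSS, the oxidosqualene cyclase, varied widely within the control groups, from 1.73 to 10.4 CPM in control OVCAR3 and from 1.85 to 15.6 CPM in control CCL218, with the L pool lowest in both.

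Of the fatty acid genes 0 passed in either line. SCD was at 839.3, 1326 and 1077 CPM in control CCL218 and at 1464, 1749 and 1648 CPM after HCQ. All HCQ-evolved pools were higher, with a log2 fold change of 0.58 (SE 0.190, edgeR adjusted p = 0.117), and with plate position as a block it was 0.60 and passed (adjusted p = 0.0363). In OVCAR3 SCD had a log2 fold change of 0.11 (SE 0.237). ELOVL6, an elongase of saturated fatty acids, was at 67.4, 65.5 and 66.7 CPM in control CCL218 and at 45.7, 57.0 and 63.3 CPM after HCQ, lower without overlap (-0.27, SE 0.148, adjusted p = 0.297). ACLY, which supplies cytosolic acetyl-CoA, and FASN, the fatty acid synthase, had log2 fold changes of -0.24 and -0.15 in OVCAR3 and of -0.10 and -0.02 in CCL218. ACACA, the acetyl-CoA carboxylase that FASN depends on, had 52 to 253 counts in a pool and values of 0.48 and -0.04, with 95% intervals from -0.48 to 1.45 and from -1.13 to 1.06.

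**Figure D4:**
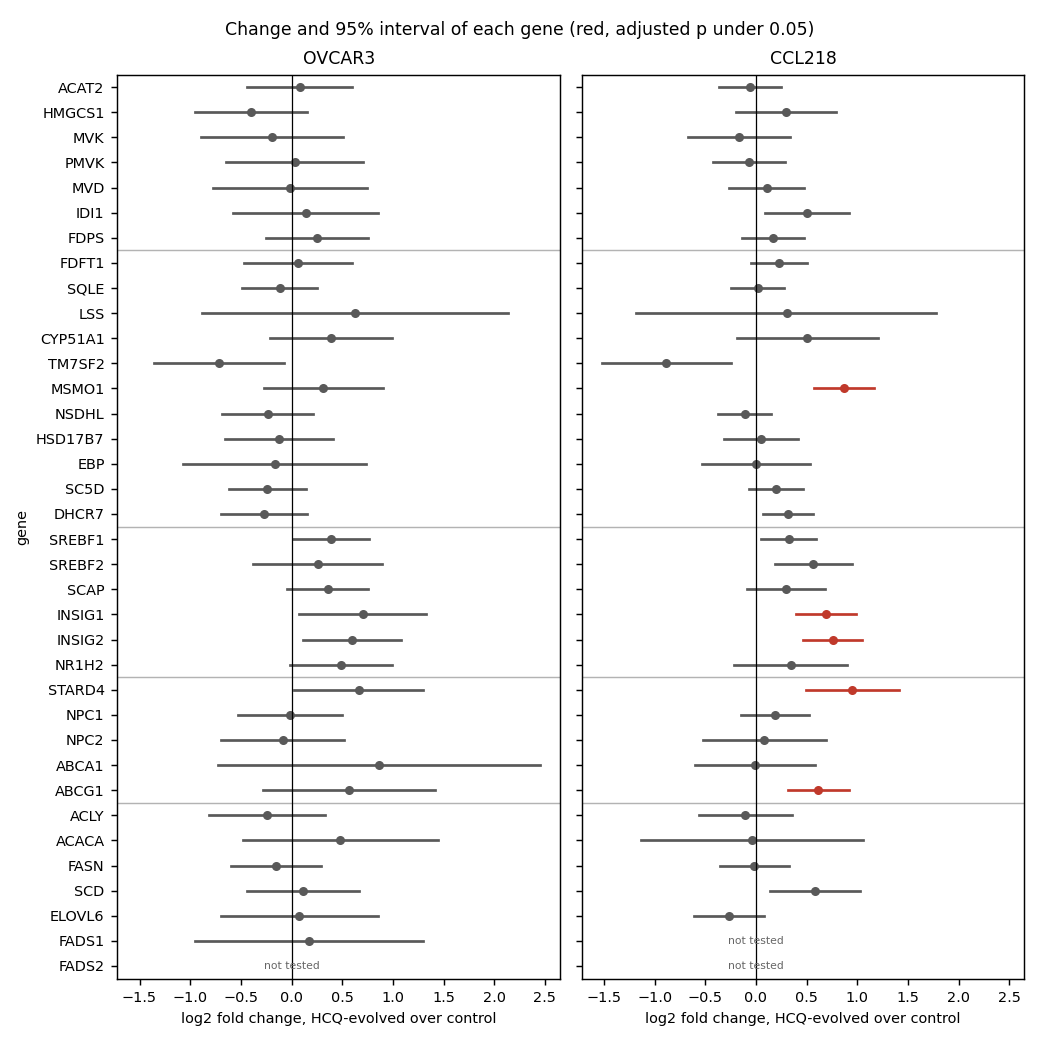
Log2 fold change (HCQ-evolved over control) of each tested gene in OVCAR3 and CCL218 on a shared axis, with its 95% interval from edgeR and in red the genes with an adjusted p under 0.05. The 5 red genes are all in CCL218, and intervals are wider in OVCAR3 for most genes.

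The 5 calls in CCL218 changed when single pools were left out, which also leaves fewer pools to test. Without control L, 12 members were called higher (13.6% of all genes) and 2 lower (ACLY and TM7SF2, 11.6% of all genes), and without control M only MSMO1 and STARD4 were called (2.44% of all genes higher). Without control R, or without any one of HCQ-evolved L, M or R, 0 members were called, where 0.924%, 0.89%, 0.594% and 0.89% of all genes rose, with adjusted p of 0.0529 to 0.0931 for MSMO1. The direction of the 5 did not turn in any of these fits. Their log2 fold changes were 0.836 to 0.930 for MSMO1, 0.718 to 0.830 for INSIG2 and 0.613 to 0.755 for INSIG1. For STARD4 they were 0.776 to 1.073 and for ABCG1 0.535 to 0.672. Whether calls were lost through a given pool or through the smaller number of pools was not tested. With plate position as a block, 7 members rose (7.82% of all genes) and 1 fell (6.43% of all genes). When the length and GC trend of each library was removed instead, 10 rose (10.3% of all genes) and 1 fell (8.68% of all genes).

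Of a list of 61 further genes of sterol and lipid metabolism, 52 were tested. The list was chosen with earlier results of these data known, so its counts are not independent of them. In CCL218, 4 of these rose (3.82% of all genes) and 0 fell (2.64%) in edgeR, and at an unadjusted p under 0.05, 13 were higher (12.5% of all genes) and 5 lower (12.7%). VLDLR, a lipoprotein receptor, was at 3.27, 5.12 and 4.38 CPM in controls and at 17.2, 18.8 and 16.5 CPM after HCQ, a log2 fold change of 2.04 (SE 0.190, 4.10-fold, adjusted p = 0.00275). ACSS2, which makes acetyl-CoA from acetate, was at 28.8, 25.6 and 21.3 CPM and at 71.4, 73.6 and 59.9 CPM (1.43, SE 0.162, adjusted p = 0.00529). GRAMD1B, which carries cholesterol from the plasma membrane to the endoplasmic reticulum, was at 142.5, 161.6 and 138.1 CPM and at 252.2, 329.3 and 293.1 CPM (0.98, SE 0.141, adjusted p = 0.0107). The fourth was SCARB1, the scavenger receptor for high-density lipoprotein (0.55, SE 0.111, adjusted p = 0.0319). Groups did not overlap for any of these 4. In OVCAR3 0 of the 52 passed in edgeR (0.647% of all genes rose and 1.21% fell), and at an unadjusted p under 0.05, 6 were higher (8.38% of all genes) and 0 lower (7.87%). ME1, the cytosolic malic enzyme that supplies NADPH, had the smallest p, with 13.8, 15.7 and 20.8 CPM in controls and 35.2, 31.9 and 37.7 CPM after HCQ (1.08, SE 0.221, adjusted p = 0.0583). All 3 HCQ-evolved pools, R included, were above the controls for ME1.

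The change after HCQ was compared between lines by an interaction in a fit of all 12 libraries. Of 35 members, 0 passed in edgeR, where 0.69% of the 12613 genes tested had a higher value in CCL218 and 0.182% a lower one. At an unadjusted p under 0.05 there were 2, DHCR7 and SC5D, both higher in CCL218 (5.41% of all genes). INSIG1 differed by -0.001 (95% interval -0.68 to 0.68) and INSIG2 by 0.18 (-0.34 to 0.69), so a member called in CCL218 and not in OVCAR3 was not shown to respond differently. MSMO1 differed by 0.57 (-0.06 to 1.20).

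Between control pools, 0 of 35 members differed at an adjusted p under 0.05 in edgeR (1.35% of genes were higher in CCL218 and 2.07% lower). At an unadjusted p under 0.05, 2 were lower in CCL218, PMVK and FADS1 (7.88% of all genes). FADS1, the delta-5 desaturase, was at 1.78, 2.11 and 0.741 CPM in control OVCAR3 and at 0.394, 0.523 and 0.449 CPM in control CCL218, a log2 difference of -1.74 (SE 0.483, adjusted p = 0.0858). It passed in DESeq2 (adjusted p = 0.0133) and without HCQ-evolved OVCAR3 R, which shares the estimate of spread (adjusted p = 0.0430). Besides the main fit, it passed in 3 of 8 settings and in 1 of 12 fits that left out a pool. FADS1 was below 1 CPM in every CCL218 pool (0.182 to 0.523 CPM), so it met the filter only through OVCAR3 pools. The lower level of FADS1 in CCL218 and these calls are therefore not independent of the filter. Its exons overlap 490 bases of FADS2 on the opposite strand. The pools of 8 members were lower in CCL218 without overlap (9.13% of all genes), and the median over members was -0.14 on the log2 scale.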

How the data were processed

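Poly(A) RNA of 12 pools was sequenced, and a single matrix of raw counts per gene was deposited by the authors. Per the labels and the study's methods, reads were aligned to hg38 with STAR, duplicates were removed and genes were counted with featureCounts. Versions and the strand setting were not given in the sources used here. Removal of duplicates can lower the counts of the most abundant genes. Of entries with 1 to 4 counts 78.9% were even, so a count may not be an independent molecule. In the matrix 0 columns were without a sample. The members and lists were chosen with earlier results of these data known.

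Libraries were scaled by TMM. A gene entered a fit if 3 or more of its libraries reached 1 CPM. The deposited counts were tested by edgeR 4.0.16 (quasi-likelihood F test, R 4.3.3) with Benjamini-Hochberg adjustment over all genes and a threshold of 0.05. Each line was fitted alone, and the interaction and the control comparison used all 12 libraries. DESeq2 1.42.0, limma 3.58.1 (voom), RLE normalization, library totals, no filter, an offset for length and GC content, and leaving out each pool were alternatives. Per-pool medians used log2(CPM + 0.5). Values in every pool are given for members that passed and for the 3 highest and 3 lowest log2 fold changes in each line. Other members shown by pool were chosen after their values were seen. With 3 pools against 3, an exact permutation test of a single gene cannot go below p = 0.1, so none is given.

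Control and HCQ-evolved pools carried the same plate positions. After group means were removed, pools of the same position correlated at 0.541 (L), 0.270 (M) and 0.227 (R) in CCL218 and at 0.422, -0.692 and -0.500 in OVCAR3. Same-position correlations were thus all positive in CCL218 only. Even there HCQ-evolved R correlated more with control M (0.471) than with control R (0.227), so position did not pair every pool. The tests had no block for position, and the blocked value is given beside each CCL218 result whose call it changed. In simulated data with 200 changed genes of log2 size 1.5, edgeR recovered 124 with 10 false calls in OVCAR3 (12087 genes) and 186 with 12 in CCL218 (12151 genes). In the interaction it recovered 79 with 6 false calls (12433 genes). On the same simulated data DESeq2 found 169, 197 and 130 of the changed genes, and its false calls numbered 37, 52 and 28. The simulated counts were drawn independently for each pool, without the length trends seen here. The largest HCQ change of a tested member was 0.951 on the log2 scale. The simulation therefore does not give the recovery or the error for the members. Symbols were matched to GENCODE 44 for 25763 of 28278 genes (91.1%).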

Additional observations from a re-analysis of the deposited data

Results flagged for a closer look

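HMGCS1, SC5D and DHCR7 had every HCQ-evolved pool below the control mean in OVCAR3 and above it in CCL218. They were flagged for this pattern, so interaction values from the same pools are not independent of the choice. The share of all genes with the pattern was not counted. The difference between lines was tested as the interaction in edgeR over all 12 libraries. It was 0.711 on the log2 scale for HMGCS1 (SE 0.328, unadjusted p = 0.0526, adjusted p = 0.559), 0.455 for SC5D (SE 0.163, unadjusted p = 0.0167, adjusted p = 0.326) and 0.606 for DHCR7 (SE 0.198, unadjusted p = 0.0105, adjusted p = 0.256). None of the 3 passed after adjustment in edgeR. DESeq2 called SC5D (adjusted p = 0.0187) and gave DHCR7 an adjusted p of 0.0657. With the length and GC trend removed, the SC5D interaction was 0.458 (adjusted p = 0.457, edgeR), while its CCL218 change alone was -0.001. In simulated data DESeq2 made 28 false calls in the interaction and edgeR 6.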

How the results depend on the processing

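With 3 pools in a group, calls changed when single pools were left out, although the 5 called genes had 508 to 11722 counts in every pool. In OVCAR3 the members called higher were 0 and became 1 with the length and GC offset (NR1H2), with all 12 libraries in a single fit (INSIG2), and in an alternative chosen after seeing the data that left out both pools with a positive length trend (INSIG1). Those called lower became 1 with the offset (TM7SF2). Leaving out single pools gave 0 to 1 higher in OVCAR3 and, in CCL218, 0 to 12 higher and 0 to 2 lower. In CCL218 the members called higher were 9 with DESeq2, 10 with the offset, 9 with the offset and the replicate block, and 3 with all libraries in a single fit. Those called lower were 1 without a filter, with DESeq2, with the offset, with the replicate block, and with both. The replicate block added SREBF2, SCD and TM7SF2 to the CCL218 calls, changed no other call of a member there, and gave 0 members called in OVCAR3. In the interaction DESeq2 called 1 member higher. Between controls DESeq2 called 1 lower and the offset 2, with or without the block, and leaving out single pools gave 0 to 1. FADS1, which was among these calls, met the filter only through OVCAR3 pools. The share of all genes called also shifted with the setting, for example 0.647% higher in OVCAR3 with edgeR and 4.44% with DESeq2. In CCL218 it was 3.82% higher with edgeR and 7.82% with the replicate block. Shares for the other settings counted here are not all given. The counts of members are therefore not comparable between settings, and a larger count is not a stronger result for the members. The cause of these shifts was not tested.

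Outside the fits that left out a pool, the log2 fold change of a single member kept its direction in 332 of 350 cases in OVCAR3 and in 292 of 306 in CCL218, and none of those that turned had been called. In OVCAR3, values turned with both positive-trend pools left out for MVD (0.105), NPC1 (0.086), ABCA1 (-0.357) and ELOVL6 (-0.327), with the offset for MVD (0.113), IDI1 (-0.028), FASN (0.004) and ELOVL6 (-0.126), and with voom for NPC1 (0.013) and ELOVL6 (-0.010). They also turned without a filter for MVD (0.021) and NPC1 (0.024), with the replicate block for NPC1 (0.003) and ELOVL6 (-0.025), and with block and offset for MVD (0.111), IDI1 (-0.059), FASN (0.006) and ELOVL6 (-0.140). In CCL218, values turned with the offset for PMVK (0.137), SQLE (-0.028), SC5D (-0.001) and FASN (0.054), with voom for ABCA1 (0.001) and ACACA (0.071), and without a filter for ABCA1 (0.018) and FASN (0.013). With the replicate block they turned for ABCA1 (0.002) and ACACA (0.061), and with block and offset for ACAT2 (0.003), PMVK (0.155), SQLE (-0.028) and FASN (0.066). When single pools were left out, the ranges that crossed 0 in OVCAR3 were those of ACAT2 (-0.055 to 0.232), MVK (-0.381 to 0.037), PMVK (-0.117 to 0.262), MVD (-0.232 to 0.265), IDI1 (-0.038 to 0.389), FDFT1 (-0.049 to 0.253), HSD17B7 (-0.257 to 0.024), EBP (-0.421 to 0.132), SREBF2 (-0.071 to 0.421), NPC1 (-0.167 to 0.166), NPC2 (-0.235 to 0.115), ABCA1 (-0.519 to 1.256), ACLY (-0.403 to 0.023), SCD (-0.025 to 0.291), ELOVL6 (-0.389 to 0.309) and FADS1 (-0.256 to 0.475). In CCL218 they were those of ACAT2 (-0.114 to 0.027), MVK (-0.319 to 0.062), PMVK (-0.177 to 0.002), MVD (-0.006 to 0.200), SQLE (-0.034 to 0.052), LSS (-0.203 to 0.679), HSD17B7 (-0.045 to 0.134), EBP (-0.162 to 0.283), NPC2 (-0.071 to 0.430), ABCA1 (-0.201 to 0.225), ACLY (-0.300 to 0.054), ACACA (-0.404 to 0.535) and FASN (-0.131 to 0.102).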
